A study of Rattus norvegicus with 50 samples.

Results

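The kidney medulla of obese ZSF1 rats given MK-8722 at 10 mpk was compared with the medulla of obese ZSF1 rats given vehicle. The 5 libraries of each group, 10 of the 50 in the series, were chosen by their labelled tissue, body type, compound and dose. MK-8722 is an activator of AMP-activated protein kinase (AMPK), and mpk is the dose unit of the labels. All 10 libraries came from stranded total RNA depleted of ribosomal RNA. The labels give 28 weeks of treatment for both groups beside an age of 20 weeks, without saying when that age was taken. Medulla groups of 5 libraries each from obese MK-8722 1 mpk, obese enalapril 10 mpk and lean vehicle rats were set beside them, as were the cortex groups obese MK-8722 10 mpk and obese vehicle. The labels do not tie libraries to individual rats; a p-value here therefore reflects library-to-library spread, which may be technical.

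AMPK is a kinase of a catalytic alpha, a scaffolding beta and a nucleotide-sensing gamma subunit. It is switched on when cellular AMP rises relative to ATP, and it then restrains lipid synthesis and favours fuel oxidation. The obese ZSF1 rat lacks functional leptin receptors and develops diabetes, hypertension and progressive kidney disease. The medulla holds the loops of Henle, the collecting ducts and the vasa recta, and it works at low oxygen and high salt. The deposited table lists Ensembl rat gene IDs without gene names, and 0 of its 32545 IDs could be paired with a symbol, so genes are given by ID. For the same reason the labelled tissue and the AMPK subunits could not be checked by their genes. As a substitute, each of the 25 medulla libraries was closer to the mean of the other medulla libraries than to the mean of cortex.

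MK-8722 at 10 mpk changed the levels of many genes in the obese medulla, mostly by less than 2-fold. Values are FPKM (fragments mapped to a gene, relative to its length and to all mapped fragments of the library), tested as log2(FPKM + 0.5) in 13561 IDs with at least 1 FPKM in 5 or more of the 10 libraries. After median-ratio rescaling of the libraries, 441 IDs (3.25%) were higher and 289 (2.13%) lower with MK-8722 10 mpk than with vehicle (limma, adjusted p under 0.05). On the deposited values 218 IDs (1.61%) were higher and 2344 (17.3%) lower. IDs called in the same direction on both scales numbered 216 higher (1.59%) and 289 lower (2.13%), and 0 were called in opposite directions. These fits share their estimate of spread with the other medulla groups. With the compared groups alone in the fit, 162 IDs were higher and 58 lower on rescaled values. On both scales 67 were then higher and 58 lower. In whole medulla, fewer cells of a type and less RNA per cell cannot be told apart.

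The scale set the balance of these counts. The median log2 fold change over all tested IDs was -0.18 on the deposited values and -0.01 after rescaling, and 82% of IDs had a negative value as deposited. Scaling by the upper quartile instead gave 375 higher and 377 lower, and scaling by the summed FPKM without the 20 most abundant IDs gave 368 and 363. The rescaling factors, by which FPKM were divided, were 0.943, 1.04, 0.998, 0.888 and 1.04 in the MK-8722 10 mpk libraries and 1.09, 1.13, 1.09, 1.11 and 1.18 in the vehicle libraries. The groups did not overlap, and the difference of -0.137 had the smallest p that 5 against 5 libraries allow (exact two-sided permutation test, p = 0.00794; adjusted over 5 library measures 0.0132).

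**Figure D1:**
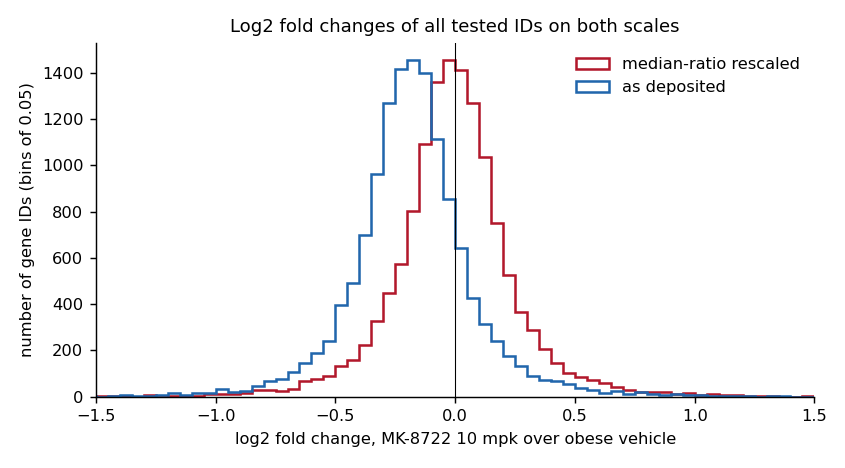
Log2 fold changes (x axis, MK-8722 10 mpk over obese vehicle) of the 13561 tested IDs, as the number of IDs per bin of 0.05 (y axis), for deposited values and after median-ratio rescaling. The deposited curve lies left of 0 with a median of -0.18 and the rescaled curve centres at -0.01; 24 IDs on deposited and 19 on rescaled values lie outside the axis range.

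Most of the called changes were small. On rescaled values the median log2 fold change was 0.52 among the 441 higher and -0.52 among the 289 lower IDs. At least 2-fold changes were called for 37 higher and 23 lower IDs. The 5 values of MK-8722 10 mpk lay wholly above the 5 of vehicle for 395 of all tested IDs (2.91%) and wholly below for 246 (1.81%), called or not. As deposited, these counts were 116 (0.855%) and 1138 (8.39%). On rescaled values the median standard error of a log2 fold change was 0.12 and the smallest called change 0.18.

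Counts moved in both directions when single libraries were left out. Of the 730 rescaled calls, leaving out MK-8722 10 mpk replicate 1 left 439 calls and leaving out its replicate 5 left 451, while leaving out vehicle replicate 6 left 444 and vehicle replicate 7 left 329. The 2562 deposited calls became 1416 and 1249 when those treated libraries, and 1633 and 1032 when those vehicle libraries, were left out in the same order. Without MK-8722 10 mpk replicate 2, its replicate 6 or vehicle replicate 5 the rescaled counts rose to 903, 988 and 988. The deposited counts then rose to 3059, 3242 and 2692. Vehicle replicate 7 had the lowest relative depth of the 10 libraries, 0.596. In every fit with 1 of the 10 libraries left out, 212 higher and 80 lower IDs kept their rescaled call. Relative depth, read from the value of 1 read in low genes, was 0.865 ± 0.128 with MK-8722 10 mpk and 0.724 ± 0.0812 with vehicle (SD, n = 5 each; exact two-sided permutation test, p = 0.0635). With depth as a term 229 IDs were higher and 105 lower on rescaled values.

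IDs are named by rank of rescaled change among those called on both scales, not overlapping between groups and with a mean of at least 2 FPKM in the higher group. The largest rise was that of ENSRNOG00000006873. Its FPKM were 237, 163, 249, 264 and 123 in the MK-8722 10 mpk libraries, against 98.4, 50.9, 75.5, 52.1 and 17.6 in the vehicle libraries. The groups did not overlap, and both varied more than 2-fold between libraries. The log2 fold change was 2.14 ± 0.35 (SE) on rescaled values (limma, adjusted p = 0.00104) and 1.95 ± 0.33 on deposited values (adjusted p = 0.00124). The other medulla groups averaged 66.4 ± 26.9 FPKM at MK-8722 1 mpk, 117 ± 30.9 with enalapril and 166 ± 15.4 in lean vehicle rats (SD, n = 5).

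ENSRNOG00000010932 had 19.2, 24.1, 36.8, 27.6 and 28.8 FPKM with MK-8722 10 mpk, against 13.5, 8.33, 10.9, 5.79 and 3.76 FPKM with vehicle. Every treated library was above every vehicle library, and above every library at MK-8722 1 mpk, where the highest value was 10.9 FPKM. Its log2 fold change was 1.90 ± 0.29 (SE) on rescaled values (limma, adjusted p = 0.000493) and 1.72 ± 0.28 on deposited values (adjusted p = 0.00085). Lean vehicle medulla held 23.1 ± 2.21 FPKM and enalapril medulla 9.46 ± 2.53 FPKM (SD, n = 5). The values at 10 mpk thus ranged around those of lean rats, which lay between 20.2 and 25.3 FPKM.

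The largest fall was that of ENSRNOG00000013062, with 8.70, 5.42, 6.68, 11.2 and 5.78 FPKM in MK-8722 10 mpk libraries against 36.9, 36.8, 57.7, 46.5 and 29.5 FPKM in vehicle libraries. The highest treated value was less than the lowest vehicle value. The log2 fold change was -2.20 ± 0.26 (SE) on rescaled values (limma, adjusted p = 2.77e-05) and -2.39 ± 0.24 on deposited values (adjusted p = 3.84e-06). The other groups averaged 24.9 ± 9.87 FPKM at MK-8722 1 mpk, 116 ± 30.7 with enalapril and 26.5 ± 5.72 in lean vehicle medulla (SD, n = 5). The 1 mpk, lean and obese vehicle ranges overlapped, whereas all 5 values at 10 mpk were below all others and all 5 enalapril values above all others.

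ENSRNOG00000031641 had 1.4, 2.94, 4.31, 6.04 and 6.18 FPKM with MK-8722 10 mpk, against 7.43, 14.2, 43.3, 10.3 and 16.1 FPKM with vehicle. One vehicle library, replicate 5, was far above the rest. The log2 fold change was -1.70 ± 0.47 (SE) on rescaled values (limma, adjusted p = 0.0367) and -1.88 ± 0.47 on deposited values (adjusted p = 0.0113). The rescaled call was lost without MK-8722 10 mpk replicate 1, 2 or 3 or vehicle replicate 4, 5 or 7, with adjusted p between 0.0594 and 0.123. With only the compared groups fitted both calls were lost (adjusted p = 0.108 rescaled, 0.0509 deposited). Without vehicle replicate 5 the rescaled log2 fold change was -1.32 (adjusted p = 0.0775). The other 3 IDs kept their calls on both scales in every alternative run.

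**Figure D2:**
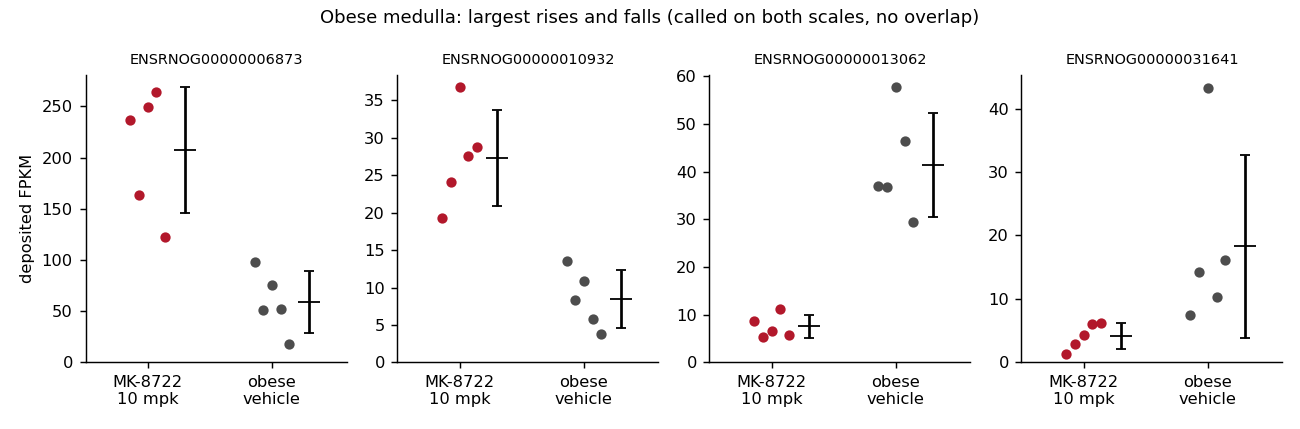
Deposited FPKM (y axis) of the 2 IDs with the largest rises and the 2 with the largest falls among IDs called on both scales without overlap, in the 5 MK-8722 10 mpk and the 5 obese vehicle medulla libraries; each point is a library, and bars give the mean and SD. The groups do not overlap for any of the 4 IDs, and ENSRNOG00000031641 has 1 vehicle library at 43.3 FPKM.

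Several of the most abundant transcripts of the medulla rose. Of the 20 most abundant IDs, with mean levels of 1548 to 185221 FPKM, 10 were higher on rescaled values, and 9 of these 10 also on deposited values. Their log2 fold changes were 0.43 to 0.81 on rescaled and 0.24 to 0.62 on deposited values. No ID of the 20 fell on rescaled values, while 2 fell on deposited values. These shares, 10 of 20 higher and none lower, stand beside 3.25% and 2.13% of all tested IDs. Whether the 10 vary together was not tested, so they may not be separate observations. Among the 497 IDs with a mean of 100 FPKM or more, which include these 20, the shares were 11.5% and 5.43%.

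The 10 IDs that rose made up 25.5%, 22.1%, 25.5%, 28.8% and 23.1% of the summed FPKM in the MK-8722 10 mpk libraries, and 20.0%, 19.6%, 21.7%, 18.3% and 17.7% in the vehicle libraries. These libraries served to choose the 10 IDs, so the separation is given without a test. The same IDs made up 19.6% ± 2.85 at MK-8722 1 mpk, 22% ± 1.36 with enalapril and 24.4% ± 1.07 in lean vehicle medulla (SD, n = 5). The other 10 of the 20 made up 41.8% ± 1.96 with MK-8722 10 mpk and 42.5% ± 1.45 with vehicle (SD, n = 5). Over all 20, the share was 66.8% ± 1.74 with MK-8722 10 mpk and 62.0% ± 1.18 with vehicle (exact two-sided permutation test, p = 0.00794; adjusted over 5 library measures 0.0132). IDs at 1 FPKM or more numbered 13008 to 13504 with MK-8722 10 mpk and 13480 to 13977 with vehicle (p = 0.0159 in the same exact test, adjusted 0.0198). The part of these shares in the lower deposited values was not tested.

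Against MK-8722 1 mpk the rescaled log2 differences of the 10 were 0.37 to 0.68. That comparison uses the same 10 mpk libraries by which the 10 IDs were chosen, so these values are a description without a test. In cortex, whose libraries took no part in the choice, 2 of the 10 were called higher and 0 lower on rescaled values, beside 4.21% and 3.76% of all tested IDs, with log2 fold changes of -0.08 to 0.81. On deposited values 2 were called higher and 1 lower in cortex. The effect in medulla minus that in cortex was -0.13 to 0.69 on the log2 scale for the 10. It rests on the medulla libraries that chose the IDs, so it too is a description without a test. Over all tested IDs, 0 of the 10 were among those called for that difference.

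Calls became more frequent with abundance on both scales, while their direction depended on the scale. On rescaled values 57 of 497 IDs with a mean of 100 FPKM or more were higher (11.5%) and 27 lower (5.43%). Between 10 and 30 FPKM these counts were 146 and 64 of 3983 IDs (3.67% and 1.61%). Under 2 FPKM they were 23 and 30 of 1644 IDs (1.4% and 1.82%). On deposited values falls outnumbered rises in every class, with 30 higher and 159 lower at 100 FPKM or more, 67 and 801 between 10 and 30 FPKM, and 16 and 145 under 2 FPKM. Precision differed as well, since the median standard error of a log2 fold change was 0.11 at 100 FPKM or more and 0.19 under 2 FPKM. A lower FPKM rests on fewer reads for a gene of the same length. The median log2 fold change was 0.04 in the highest and -0.08 in the lowest class on rescaled values, and -0.15 and -0.22 on deposited values.

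**Figure D3:**
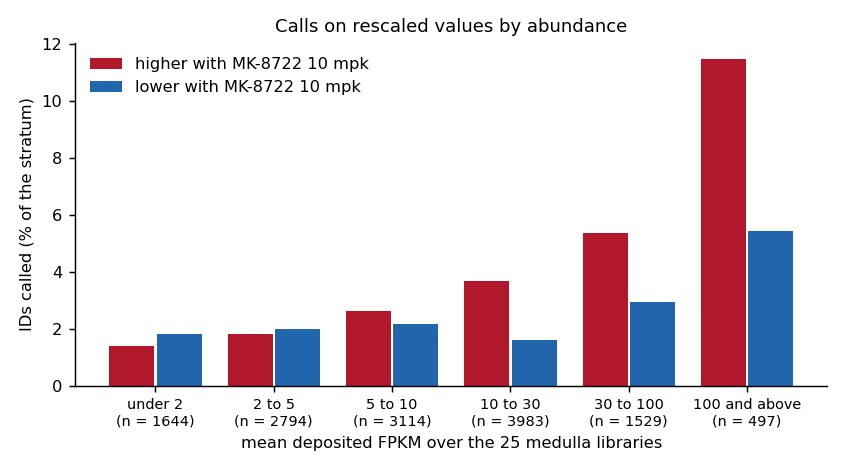
Share of IDs called on rescaled values (y axis, percent of the class; higher or lower with MK-8722 10 mpk than with vehicle) in 6 classes of mean FPKM over the 25 medulla libraries (x axis). Calls of rises go up from 1.4% under 2 FPKM to 11.5% at 100 FPKM or more, and calls of falls range from 1.61% to 5.43%; deposited values, not drawn, gave more falls than rises in every class.

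The doses of MK-8722 differed in the medulla. On rescaled values levels at 10 mpk exceeded those at 1 mpk for 249 IDs (1.84%) and were below them for 159 (1.17%) (limma, adjusted p under 0.05), and 145 (1.07%) and 692 (5.1%) on deposited values. Among rises that met the naming rule, ENSRNOG00000010932 differed most, with a log2 difference of 1.98 ± 0.29 (SE, adjusted p = 0.000586); it had 10.9, 9.94, 7.14, 6.30 and 3.44 FPKM at 1 mpk. ENSRNOG00000028985 had 6.47, 3.48, 6.89, 15.8 and 2.43 FPKM at 10 mpk, against 1.46, 1.33, 1.83, 0.701 and 1.86 FPKM at 1 mpk. The groups did not overlap, although the treated values spread more than 6-fold. Its log2 difference was 1.84 ± 0.35 (SE, adjusted p = 0.00616). Against vehicle it was 1.85 on rescaled values (adjusted p = 0.00312), with 1 library of each group overlapping. It averaged 23.0 ± 3.26 FPKM in lean vehicle and 1.58 ± 0.926 in obese vehicle medulla (SD, n = 5). With the compared groups alone in the fit its call was lost (adjusted p = 0.0814).

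Among such falls between doses, ENSRNOG00000013062 had 18.6, 26.6, 19.0, 18.8 and 41.5 FPKM at 1 mpk, all above its values at 10 mpk, with a log2 difference of -1.5 ± 0.26 (SE, limma, adjusted p = 0.00365). ENSRNOG00000058253 had 1.23, 0.864, 1.02, 1.39 and 2.29 FPKM at 10 mpk, against 7.96, 4.62, 2.54, 7.25 and 3.54 FPKM at 1 mpk. Its log2 difference was -1.44 ± 0.37 (SE, adjusted p = 0.031), while its rescaled log2 fold change against vehicle of -0.73 did not pass (adjusted p = 0.279). This call was lost without MK-8722 10 mpk replicate 1, 2, 3 or 5 or 1 mpk replicate 1 or 6 (adjusted p of 0.0519 to 0.0979). With relative depth as a term it was lost too (adjusted p = 0.0569). ENSRNOG00000006873 was also higher at 10 than at 1 mpk, by a log2 difference of 1.78 ± 0.35 (SE, adjusted p = 0.00833).

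The rescaled dose count of 408 moved with single libraries. Leaving out the 10 mpk libraries in turn (replicates 1, 2, 3, 5 and 6) gave 201, 654, 246, 162 and 715 calls. Leaving out the 1 mpk replicates 4, 6 and 7 gave 212, 149 and 263. The calls of 86 higher and 33 lower IDs held whichever of the 10 libraries was left out.

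In cortex, the same treatment gave changes that were mostly of the same direction. In a fit of all 50 libraries on values rescaled together, MK-8722 10 mpk raised 587 IDs (4.33%) and lowered 311 (2.29%) in medulla, and raised 571 (4.21%) and lowered 510 (3.76%) in cortex. Of the medulla rises 203 were also called in cortex, 34.6% of the medulla list and 35.6% of the cortex list, and 1 was opposite. Of the medulla falls 105 were also called in cortex, 33.8% of the medulla list and 20.6% of the cortex list, and 1 was opposite. In this fit each ID has 1 estimate of spread for both tissues, so IDs of small spread are more readily called in both. The tissues may also share rats, and the overlap was given no test. Mean relative depth was higher with MK-8722 10 mpk than with vehicle in both tissues. It was 0.865 against 0.724 in medulla and 1.34 against 1.02 in cortex. The part of depth in the shared direction was not tested. The IDs called in medulla had smaller cortex values, with a median log2 fold change of 0.25 for the rises, against 0.47 in medulla, and of -0.28 for the falls, against -0.52 in medulla. The IDs were chosen on the medulla values, so the gap was not tested. Of the 587 rises 88.9% had a positive cortex value, as had 50.4% of all tested IDs, and of the 311 falls 93.2% had a negative one, as had 49.6% of all.

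A direct test found a difference between tissues for 19 of the 13561 IDs (limma interaction), with an effect more positive in medulla for 9 (0.0664%) and in cortex for 10 (0.0737%). ENSRNOG00000013290 had 19.4, 13.9, 13.8, 15.5 and 10.8 FPKM with MK-8722 10 mpk in medulla, against 7.22, 7.02, 4.43, 7.41 and 5.56 FPKM with vehicle. In cortex it was far lower, at 0.801, 0.860, 0.558, 1.31 and 0.70 FPKM with MK-8722 10 mpk and 1.58, 2.13, 1.37, 1.25 and 1.71 FPKM with vehicle. It rose in medulla. In cortex its log2 fold change was -0.51 on rescaled values, which did not pass (adjusted p = 0.0716), and -0.66 on deposited values, which passed as a fall (adjusted p = 0.00735). Its effect in medulla minus that in cortex was 1.85 ± 0.26 on the log2 scale (SE, adjusted p = 4.17e-05), and lean vehicle medulla held 12.7 ± 3.58 FPKM (SD, n = 5).

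ENSRNOG00000011424 averaged 5.69 ± 1.51 FPKM with MK-8722 10 mpk and 2.95 ± 0.653 with vehicle in medulla, and 0.479 ± 0.31 and 0.988 ± 0.392 FPKM in cortex (SD, n = 5 each). The tissue difference was 1.5 ± 0.27 (SE, limma, adjusted p = 0.00328). In cortex its log2 fold change was -0.51 on rescaled values (adjusted p = 0.0993) and -0.61 on deposited values (adjusted p = 0.0159). The tissue difference was not called at a pseudocount of 0.1 (adjusted p = 0.078). ENSRNOG00000010635 went the other way, with 12.4, 20.4, 12, 7.97 and 15.6 FPKM with MK-8722 10 mpk in medulla against 20.1, 27.2, 20.6, 26.7 and 38.4 FPKM with vehicle. These medulla groups overlapped in 1 library. In cortex it averaged 35.4 ± 7.86 FPKM with MK-8722 10 mpk and 28.8 ± 4.39 with vehicle (SD, n = 5). That cortex change did not pass, with a log2 fold change of 0.50 on rescaled (limma, adjusted p = 0.0633) and 0.28 on deposited values (adjusted p = 0.255). The tissue difference was -1.26 ± 0.24 (SE, adjusted p = 0.00759).

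ENSRNOG00000015716 rose in cortex (rescaled log2 fold change 1.64, limma, adjusted p = 6.09e-08), with 7.05 ± 2.36 FPKM with MK-8722 10 mpk and 2.21 ± 0.536 FPKM with vehicle (SD, n = 5). In medulla it averaged 6.52 ± 0.538 FPKM with MK-8722 10 mpk and 5.46 ± 0.631 FPKM with vehicle (SD, n = 5), where its rescaled log2 fold change of 0.41 missed the threshold (limma, adjusted p = 0.0618). The difference in effect was -1.22 ± 0.26 (SE, adjusted p = 0.0256). It missed the threshold in 8 of the fits with 1 library left out, namely cortex MK-8722 10 mpk replicate 4 or 5, cortex vehicle replicate 3 or 6, medulla MK-8722 10 mpk replicate 3 or 6 and medulla vehicle replicate 4 or 7 (adjusted p of 0.0501 to 0.083). ENSRNOG00000011424, ENSRNOG00000010635 and ENSRNOG00000015716 also missed it when the other groups were left out of the fit (adjusted p of 0.0715, 0.106 and 0.266 in that order), and without the cortex libraries of a separate, higher range of library numbers (0.145, 0.105 and 0.0576). ENSRNOG00000013290 lost its call only with the replicate block (adjusted p = 0.204).

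The 4 IDs that led the medulla comparison itself showed no tissue difference past the threshold (limma interaction, adjusted p of 0.601 to 0.758). In the order below, the log2 differences were -0.78 ± 0.42, -0.43 ± 0.37, -0.74 ± 0.44 and -1.01 ± 0.62 (SE). These errors are wide and the IDs were chosen on medulla values, so equal effects were not shown. ENSRNOG00000006873 averaged 347 ± 80.0 FPKM with MK-8722 10 mpk and 52.5 ± 11.9 FPKM with vehicle in cortex (SD, n = 5 each), with a rescaled log2 fold change of 2.92 (limma, adjusted p = 7.81e-09). ENSRNOG00000010932 was less abundant in cortex than in medulla, at 5.47 ± 1.21 FPKM with MK-8722 10 mpk and 0.839 ± 0.386 FPKM with vehicle, and rose there too (log2 fold change 2.34, adjusted p = 5.2e-08). ENSRNOG00000013062 fell in cortex as well, to 28.0 ± 14.7 FPKM with MK-8722 10 mpk against 80.5 ± 26.3 FPKM with vehicle (log2 fold change -1.45, adjusted p = 0.00212). The cortex change of ENSRNOG00000031641, with a log2 fold change of -0.66, did not pass (adjusted p = 0.397).

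**Figure D4:**
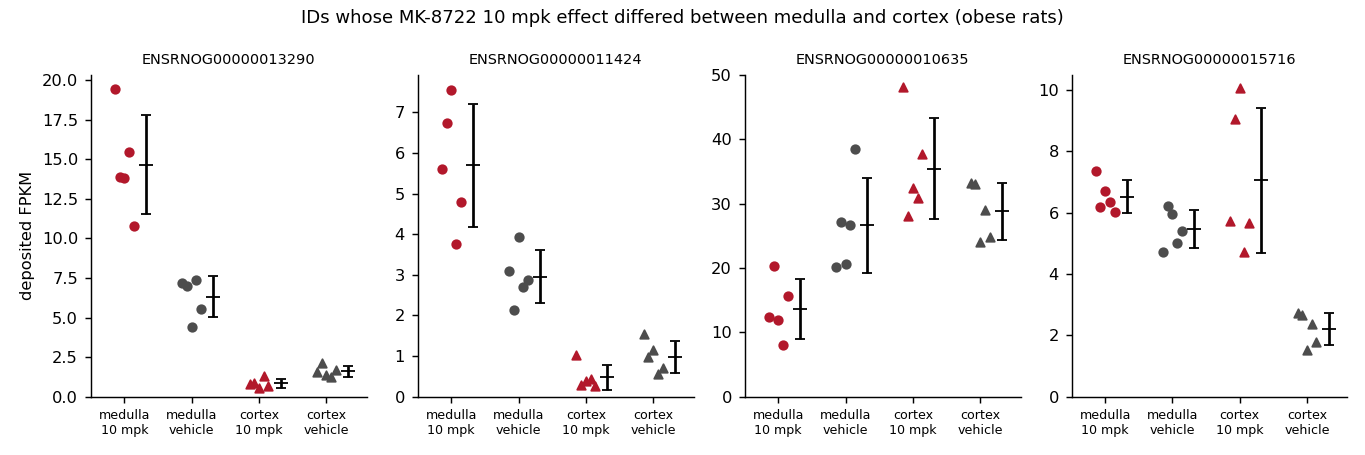
Deposited FPKM (y axis) of the 4 IDs with the largest differences in effect between tissues among those called on both scales with a mean of at least 2 FPKM, in the obese medulla and cortex libraries with MK-8722 10 mpk and with vehicle; each point is a library, and bars give the mean and SD (n = 5). ENSRNOG00000013290 is higher with MK-8722 10 mpk in medulla, from 10.8 to 19.4 FPKM, and at most 2.13 FPKM in these cortex groups, whereas ENSRNOG00000015716 separates the groups in cortex. Its medulla groups overlap as deposited. Rescaled values, not drawn, do not overlap in medulla, at 5.78 to 7.80 with MK-8722 10 mpk and 4.32 to 5.52 with vehicle.

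The count of 19 was small enough to move with single libraries. In cortex, leaving out MK-8722 10 mpk replicate 2 gave 36 calls and replicate 5 gave 11, and leaving out vehicle replicate 2 gave 12. In medulla, leaving out MK-8722 10 mpk replicate 2 gave 31 calls and replicate 3 gave 11, while vehicle replicates 5 and 7 gave 38 and 12. Library numbers of 3 cortex MK-8722 10 mpk and 1 cortex vehicle libraries lie in a separate higher range, and 6 IDs were called without the cortex libraries of that range. Deviations of same-numbered MK-8722 10 mpk libraries of the tissues had r of 0.12 to 0.34 across genes over 3 pairs. Of these, 2 of 3 were closest to their own number. Unlike numbers reached as much, with r of 0.34 between medulla replicate 2 and cortex replicate 6, so a pairing by rat was not shown. With the replicate number as a block in a fit of the compared groups alone, limma called 0 IDs, with 753 at an unadjusted p under 0.05. Without the block that fit called 4.

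The position of each medulla library was also read from IDs chosen by their cortex fold changes; medulla libraries entered that choice through the filter, the shared variance and the scaling. The score is the mean rescaled log2 level of the 227 IDs called higher with MK-8722 10 mpk in cortex on both scales minus that of the 510 called lower there on both, set to a mean of 0 in the medulla vehicle group. By rising dose, the medulla libraries scored 0.15, -0.01, 0.13, -0.07 and -0.20 with vehicle, 0.21, 0.22, 0.11, -0.01 and 0.12 with MK-8722 1 mpk, and 1.00, 0.68, 0.64, 0.86 and 0.56 with MK-8722 10 mpk. All 5 libraries at 10 mpk were above all libraries of the other obese groups, of which enalapril averaged 0.32 ± 0.15 (SD, n = 5). Vehicle and 1 mpk overlapped. Lean vehicle medulla scored 1.24 ± 0.07 (SD, n = 5), above every obese library. Cortex and medulla libraries may come from the same rats, so the score was given no test. In medulla, relative depth averaged 0.865 with MK-8722 10 mpk, 0.794 at 1 mpk, 0.763 with enalapril, 0.724 with vehicle and 1.12 in lean rats. The cortex libraries that chose the IDs averaged 1.34 with MK-8722 10 mpk and 1.02 with vehicle. Of them, 3 treated and 1 vehicle libraries lay in the higher range of library numbers. The part of depth and of that range in the score was not tested.

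**Figure D5:**
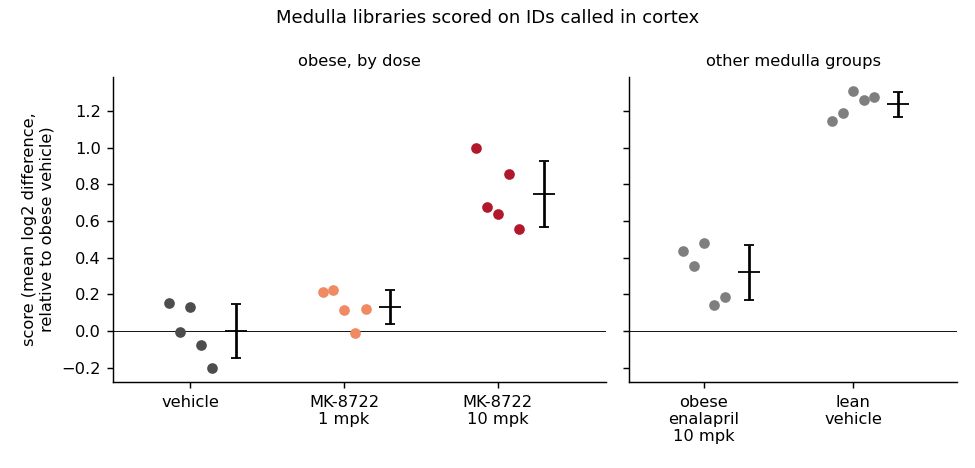
Score of each medulla library (y axis, mean log2 difference between the IDs that rose and those that fell under MK-8722 10 mpk in cortex, relative to obese vehicle medulla) by dose in obese rats, and in enalapril and lean vehicle medulla; points are libraries, bars the mean and SD (n = 5). Libraries at 10 mpk score 0.56 to 1.00, those at 1 mpk -0.01 to 0.22 and lean vehicle 1.15 to 1.31.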

How the data were processed

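The authors deposited 1 table of FPKM values per Ensembl gene ID, per the file headers; aligner, counter and genome build: not given in the sources used here. RNA came from flash-frozen kidneys, per the labels' protocols. Columns were matched to samples by the library number in the description. FPKM are not counts, so log2(FPKM + 0.5) was tested with limma 3.58.1 in R 4.3.3, with a mean-variance trend, robust moderation, two-sided tests and Benjamini-Hochberg adjustment over all 13561 IDs. A fold change on that scale understates changes of low genes. All 25 medulla libraries entered the fit with a mean per group; the tissue difference used all 50. Median-ratio rescaling divides a library by the median ratio of its values to the geometric mean over the fitted libraries.

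Comparisons and gene lists were chosen with earlier results of these data known. The lists, written by symbol, could not be applied, and sequences could not be tied to IDs. Up to 2 IDs per direction are named, namely those with the largest rescaled change among IDs called on both scales, with a mean of at least 2 FPKM in the higher group and, between groups of 1 tissue, no overlap. The score from cortex and the grouping by abundance were chosen after values were seen. Absolute depth is unknown. Relative depth came from low genes, where 95.9% of 59311 values lay within 0.1 reads of a whole number of reads; over the 50 libraries it ranged from 0.596 to 1.52 and limits precision of low genes. Simulated data with known changes were used to test the fits. Alternatives were the pseudocount, no filter, other scalings, fitting the compared groups alone, relative depth as a term and leaving out each library. A block for the replicate number was a further one, fitted on the compared groups alone.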

Additional observations from a re-analysis of the deposited data

Results flagged for a closer look

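In 8 of 86 groups of 5 libraries tested, 1 library lay far from the other 4 by Dixon's criterion, which chance meets in about 1 in 20 groups. ENSRNOG00000006873 had 114 FPKM in medulla MK-8722 1 mpk replicate 2, against 47.6 to 57.2 FPKM in the others. ENSRNOG00000031641 had such a library in 3 groups. It had 13.7 FPKM in cortex MK-8722 10 mpk replicate 2 (others 3.74 to 5.09 FPKM), 34.6 FPKM in medulla MK-8722 1 mpk replicate 1 (others 6.27 to 11.9 FPKM) and 43.3 FPKM in medulla obese vehicle replicate 5 (others 7.43 to 16.1 FPKM). ENSRNOG00000011424 had 1.02 FPKM in cortex MK-8722 10 mpk replicate 2, against 0.254 to 0.448 FPKM. ENSRNOG00000015716 had 7.29 FPKM in medulla MK-8722 1 mpk replicate 2, against 4.87 to 5.51 FPKM, and 5.42 FPKM in medulla lean vehicle replicate 7, against 7.53 to 7.96 FPKM. The 20 most abundant IDs held 59.9% of the summed FPKM in medulla obese vehicle replicate 7, against 62.1% to 62.8% in the other vehicle libraries.

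The effect of MK-8722 10 mpk differed between medulla and cortex for 19 IDs in a direct test of that difference (limma interaction). The 4 of them named above are listed here. On the log2 scale the differences were 1.85 for ENSRNOG00000013290, 1.5 for ENSRNOG00000011424, -1.26 for ENSRNOG00000010635 and -1.22 for ENSRNOG00000015716, with adjusted p of 4.17e-05, 0.00328, 0.00759 and 0.0256 in that order. With the replicate number as a block in the compared groups alone none of the 4 was called, with adjusted p of 0.204, 0.821, 0.482 and 0.348 in the same order. Same-numbered MK-8722 10 mpk libraries of the tissues deviated together no more strongly than some of unlike number.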

How the results depend on the processing

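With the compared groups alone in the fit, calls numbered 475 on deposited and 220 on rescaled values for MK-8722 10 mpk against vehicle, 104 for 10 against 1 mpk and 4 for the tissue difference. With relative depth as a term they were 846 on deposited and 334 on rescaled values against vehicle. On deposited values 837 IDs differed between doses. The tissue difference was called for 29 IDs without the filter on low values and for 6 without the cortex libraries of the higher number range. Leaving out 1 library gave 1032 to 3242 calls on deposited and 329 to 988 on rescaled values against vehicle, 149 to 715 between doses and 11 to 38 for the tissue difference. Counts under the other alternatives stayed within 1.5 times, and no named ID changed sign. Same-numbered MK-8722 10 mpk and vehicle libraries of medulla did not deviate together (r of -0.08 to 0.16 across genes over 3 pairs, 1 of 3 closest to its own number). The replicate block therefore pairs only a number. It was fitted on the compared groups alone, so its counts stand beside the 475, 220, 104 and 4 calls of that fit. Against vehicle only 3 pairs share a number, so the remaining libraries added nothing to that difference under the block. With it limma called 19 IDs on deposited and 17 on rescaled values against vehicle. It called 0 between doses (1034 at an unadjusted p under 0.05) and 0 for the tissue difference (753). Across tissues r of same-numbered libraries was 0.12 to 0.34 for MK-8722 10 mpk and 0.08 to 0.26 for vehicle. In each, 2 of 3 were closest to their own number. Lower read numbers limit IDs under 2 FPKM, although their absolute read numbers are unknown. The cause of these movements was not tested.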

Other observations

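The spread between libraries differed among the medulla groups. The median SD of an ID's rescaled log2 level over the 5 libraries was 0.21 with MK-8722 10 mpk, against 0.16 with obese vehicle. It was 0.17 at MK-8722 1 mpk, 0.20 with enalapril and 0.15 in lean vehicle medulla. These are values of single groups and were given no test.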
